A study of Mus musculus with 30 samples.

Results

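The genes for the proteins of the cytosolic ribosome were described in 30 single muscle fibres in which the mitochondrial calcium uniporter, MCU, had been raised, lowered or left alone. Members were chosen by name: every non-control probe whose gene name is Rpl or Rps followed by a digit, or Rplp0, Rplp1, Rplp2 or Rpsa, without names that begin with Rps6k (kinases) and without names marked as pseudogenes. The rule took 181 of the 55681 probes on the array, for 85 genes. Of these, 84 genes with 177 probes passed the filter on dim signal and stood among the 23342 genes tested, 51 of the large subunit by name and 33 of the small subunit. The gene that did not pass was Rpl39l. The names follow the rule and not the ribosome's structure, so that Rps19bp1, which encodes a protein that binds RPS19, and the paralogue Rpl7l1 are counted too.

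Fibres were taken from a fast muscle of the hindlimb, the extensor digitorum longus (EDL), in male CD1 mice whose muscles were injected at 8 weeks of age with an adeno-associated virus (AAV) and taken 7 or 14 days later. Wild type fibres came from muscles without virus (4 fibres at each day). The MCU vector carried the MCU gene (3 fibres at day 7, 4 at day 14). The silencing vector was directed against Mcu (3 fibres at day 7, 4 at day 14), and its control, called transfected control here, was virus without a change of MCU (4 fibres at each day). The sample titles give that control a hairpin against luciferase while another label describes virus with no cloned insert, and the sources do not settle which holds. Fibres of injected muscles were picked for the green fluorescence of the virus and after a quantitative PCR of MCU, so that a fibre's Mcu level is not independent of how it was picked. All fibres were freed with collagenase, and their RNA was amplified and labelled with random primers, so that strand was not kept. The labels name no animals, and some fibres may come from 1 muscle or mouse, so p-values reflect fibre-to-fibre spread only.

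The cytosolic ribosome translates nearly all proteins of the cell, and its large and small subunits each combine ribosomal RNA with one copy of most of their proteins, while the acidic P proteins form a stalk on the large subunit. The messages for ribosomal proteins are among the most abundant of any cell, and they usually begin at a cytosine followed by a run of pyrimidines, the 5′ terminal oligopyrimidine (TOP) tract, through which the kinase mTOR controls their translation. In striated muscle Rpl3l is a paralogue of Rpl3 that is largely restricted to heart and skeletal muscle.

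The probes behind the genes that the results turn on are shown first, since each value below is the signal of 1 such 60-base sequence. The first pair shows how far the probes of the paralogues Rpl3l and Rpl3 differ, and whether either probe also binds the other message was not tested. The capitals mark the stretch over which the 2 probes align, 27 bases of which 20 were identical and 7 differed, and the rest of each probe covers a different portion of its gene.
Rpl3l: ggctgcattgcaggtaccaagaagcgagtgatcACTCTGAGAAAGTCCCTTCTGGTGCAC
Rpl3: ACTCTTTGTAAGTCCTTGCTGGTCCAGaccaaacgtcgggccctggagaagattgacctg

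The next probes are those of a member that fell under the silencing vector, Rplp1, one that rose under it, Rpl13a, and one that rose in the transfected control, Rpl6. All 60 bases of each are printed in lower case since no single base matters to the result.
Rplp1: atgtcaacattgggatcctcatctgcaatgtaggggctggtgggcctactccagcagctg
Rpl13a: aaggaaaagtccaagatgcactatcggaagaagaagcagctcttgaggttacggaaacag
Rpl6: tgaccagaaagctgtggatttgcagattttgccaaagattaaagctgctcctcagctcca
On mouse build mm9, as the files give it, the Rplp1 probe lies at chr9:61761259-61761318 and the Rpl6 probe at chr5:121658820-121658879. The probes of Rpl13a (chr7:52381388-52381529), Rpl3l (chr17:24872413-24872681) and Rpl3 (chr15:79908489-79908772) span more genome than their own length, that is, each crosses an exon junction. Rplp1, Rpl13a and Rpl3 lie on the minus strand, and Rpl3l and Rpl6 on the plus strand. The 84 genes are spread over 18 chromosomes.

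A level here is log2 of a probe's signal over the 75th percentile of its array, so that the total amount of RNA in a fibre cannot be read from them. Differences between groups are log2 differences with their standard error (SE) from 1 limma model of all 30 fibres, with Benjamini-Hochberg adjusted p over all 23342 genes and a threshold of 0.05. The 75th percentile of signal lay between 83.2 and 138 units, and between 49.4% and 59.5% of probes stood well above the background. The lowest single value of each was in a silenced fibre of day 7, a group that lay between 83.2 and 104 units and between 49.4% and 53.0% and overlapped other groups in both, and the highest member median below is in that group too. The part of signal and detection in the results was not tested. All 7 measured markers of fast fibres were detected in every fibre, while none of 3 satellite cell markers passed the filter. A vector and its control of the same day were on 1 slide in different array columns, so that column and treatment cannot be told apart. Wild type fibres and transfected controls were on different slides, and slide and group cannot be told apart for them.

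The targeted gene was examined first. At day 7, Mcu stood at 2.73, 2.47, 2.55 and 2.92 in the wild type fibres and at 3.60, 3.13 and 3.09 with the MCU vector. At day 14 it stood at 2.79, 2.15, 2.52 and 2.37 in wild type fibres and at 6.37, 5.87, 6.66 and 6.54 with the MCU vector. The groups did not overlap at either day, but the difference passed the test at day 14 only (3.90 ± 0.38, adjusted p = 4.01e-06, against 0.60 ± 0.41, adjusted p = 0.999, at day 7). Silenced fibres held 1.28, -0.60 and 0.78 at day 7 against 2.30 to 3.02 in their controls, and -1.15, -0.01, -1.69 and 0.75 at day 14 against 2.33 to 2.80. Both falls passed the test (adjusted p = 0.00163 and 1.75e-05).

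The ribosomal protein genes were bright in every fibre. All 84 were well above background on all 30 arrays, and 172 of the 181 probes were too, with no saturated spot. The median over the 84 genes lay between 5.00 and 5.80 in single fibres, while the median over all genes tested lay between -0.30 and -0.23. In wild type fibres of day 7 this member median was 5.25, 5.19, 5.25 and 5.25, and in those of day 14 it was 5.01, 5.54, 5.22 and 5.36. The means of these groups, 5.24 ± 0.03 and 5.28 ± 0.23 (SD, n = 4), were alike, but the fibres of day 14 were more widely spread. Members with a mean under 1 in wild type fibres of day 7 were Rpl10l, Rpl21, Rpl3, Rpl7l1, Rps19bp1 and Rps4l. Signals of different probes also differ by how well each probe binds, so that no order of the genes is read from these levels.

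**Figure D1:**
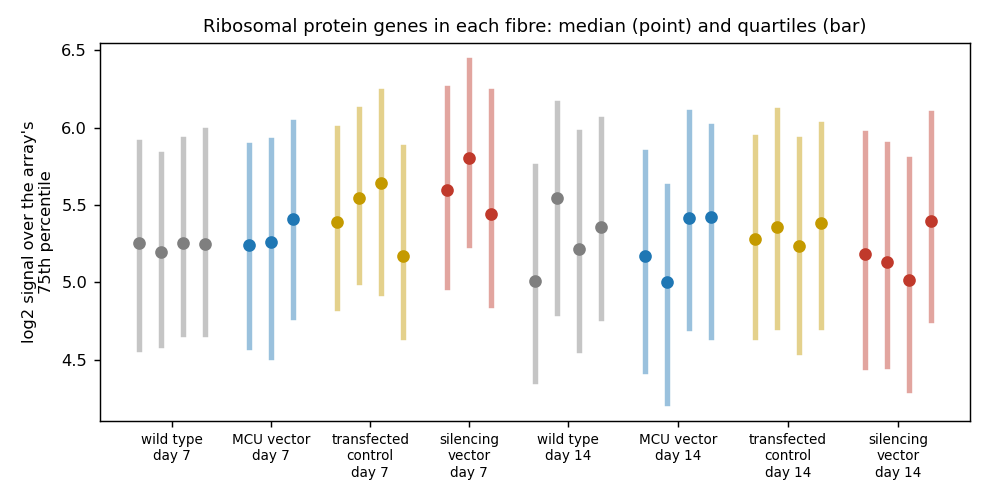
Each point is the median log2 signal, over the array's 75th percentile, of the 84 ribosomal protein genes in 1 fibre, and each bar spans their quartiles. Fibres are ordered along the horizontal axis by group. Silenced fibres of day 7 reach from 5.44 to 5.80 and those of day 14 from 5.01 to 5.40, and in both cases the range overlaps that of the transfected controls of the same day.

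Fibres of 1 group differed from each other mostly in the level of the whole set. Each gene's deviation from its group mean was taken in the 30 fibres, and the median Pearson correlation between pairs of members was 0.73 (quartiles 0.55 and 0.82), with 92.5% of pairs above 0. The same median was 0.00 over 1165 genes taken as every 20th gene of the table, and 0.30 over the 1002 other genes at or above the members' median level. These correlations are descriptions: the points share the same arrays and the same scaling, and they carry no p. Rps20 (0.97) and Rpl34 (0.96) were among those that followed the median of the other members most closely. Rps3 (-0.37), Rpl21 (-0.23), Rps2 (0.00), Rps4l (0.11) and Rpl3l (0.11) followed it least. Because most members moved together from fibre to fibre, a count of members above or below 0 is not a count of separate measurements. Across the same deviations, the fibre's member median correlated at -0.35 with the array's 75th percentile and at -0.15 with its share of detected probes.

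**Figure D2:**
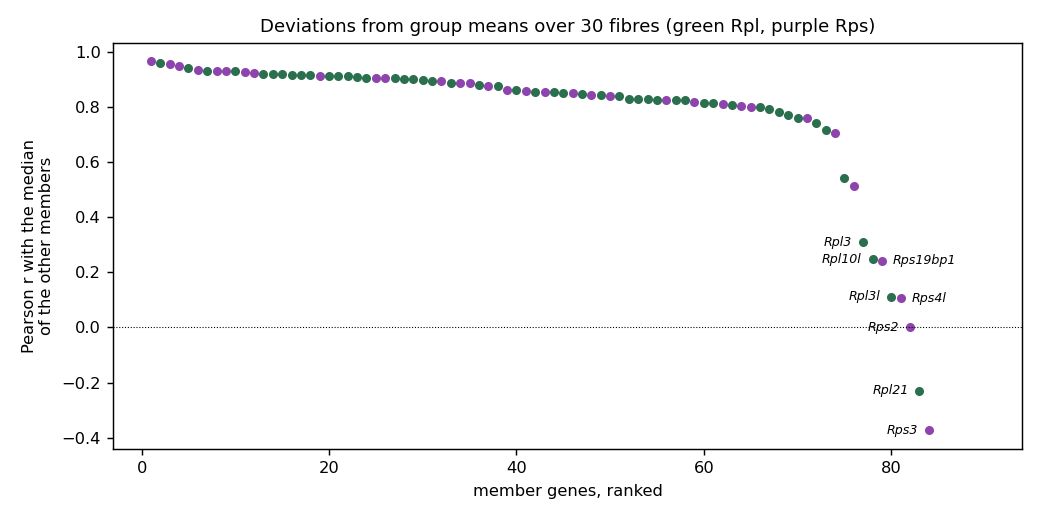
Each point is 1 member gene, ranked along the horizontal axis by the Pearson r on the vertical axis between its deviations from the group means and those of the median of the other members, over 30 fibres. Most genes lie high, up to 0.97 for Rps20, while Rps3 and Rpl21 lie below 0.

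The members also varied little. The residual SD between fibres of a group had a median of 0.19 over the 84 genes (0.11 to 0.62), against 0.31 over all genes and 0.16 over the other bright genes. Rpl3 varied the most (0.62), followed by Rps4l (0.33) and Rps27l (0.28), a paralogue of Rps27. The median SE of an effect over both days was 0.10 for members and 0.16 for all genes. A given fold change was therefore measured more precisely in these genes than in most.

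The first comparison sets fibres with the MCU vector against wild type fibres. The wild type muscles had no virus, so that extra MCU and the virus itself cannot be told apart here. With the MCU vector, none of the 84 ribosomal protein genes passed the test over both days, at day 7 or at day 14, where 1.13%, 0.574% and 0.428% of all genes did. At an unadjusted p below 0.05, over both days, 0 members were higher and 2 lower, where 6.02% of all genes were higher and 7.08% lower. All 84 effects lay within 0.5 either way (from -0.33 for Rps3 to 0.17 for Rps4x), as did 92.2% of all genes. The member median was -0.01 and that of all genes -0.02. At day 7, 56 members lay above 0 (median 0.05) and at day 14, 30 did (median -0.06).

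The smallest p over both days was that of Rps3, a small subunit protein near the site where messenger RNA enters. Rps3 stood at 6.06, 5.77, 5.94 and 6.37 in wild type fibres of day 7 and at 5.83, 5.87 and 5.74 with the MCU vector. At day 14 it stood at 6.36, 6.08, 6.42 and 6.09 in wild type fibres and at 5.76, 5.84, 5.64 and 5.94 with the vector. The groups overlapped at day 7 and not at day 14, where all 4 treated fibres were lower. The difference was -0.33 ± 0.11 over both days (adjusted p = 0.14) and -0.44 ± 0.14 at day 14 (adjusted p = 0.216). Over the alternatives the difference over both days lay between -0.37 and -0.09, the smallest with the mean of the gene's kept probes (adjusted p = 0.66), and it passed with array weights alone (adjusted p = 0.0324). Next in order were Rpl22l1 (-0.30 ± 0.12, adjusted p = 0.27) and Rps27 (-0.22 ± 0.12, adjusted p = 0.442). At day 7 the smallest p-values were those of Rpl22l1 (-0.36 ± 0.18), Rps19bp1 (-0.35 ± 0.19) and Rpl3 (-0.66 ± 0.45), and at day 14, after Rps3, those of Rpl10l (-0.32 ± 0.16) and Rpl35 (-0.33 ± 0.17). Their adjusted p lay between 0.445 and 0.999.

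At day 7 every MCU vector fibre lay above every wild type fibre for 6 members (Rpl12, Rplp0, Rps20, Rps4x and Rps7 among them) and below for 1 (Rps19bp1), while 4.08% and 4.02% of all genes were so separated. At day 14 no member was separated upwards and 2 downwards (Rpl10l and Rps3), against 3.92% and 4.36% of all genes. The change of the MCU vector effect from day 7 to day 14 passed for no member, where 0.201% of all genes passed. No member reached an unadjusted p below 0.05 for that change, where 1.58% of all genes did so upwards and 1.90% downwards. The smallest p-values were those of Rps10 (-0.40 ± 0.23), Rpl23a (-0.32 ± 0.21) and Rpl35 (-0.38 ± 0.25), each with an adjusted p of 1.

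**Figure D3:**
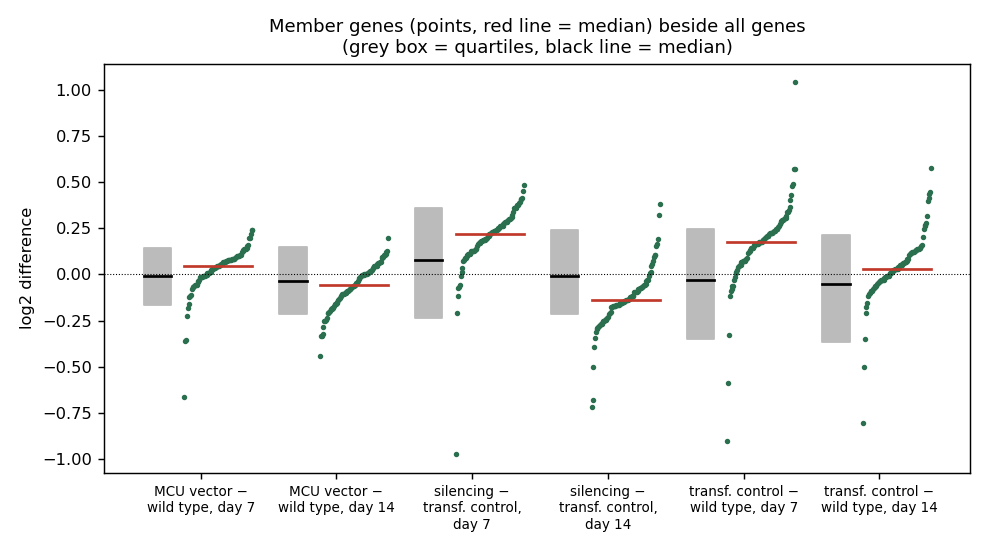
Points are the log2 differences of the 84 member genes in each comparison on the horizontal axis, with their median as a red line, and grey boxes give the quartiles of all genes tested, with their median in black. The members centre on 0.05 and -0.06 for the MCU vector at day 7 and day 14, and on 0.22 and -0.14 for silencing. For the transfected control against wild type fibres they centre on 0.18 and 0.03.

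The question of the second comparison is what loss of MCU does, with the transfected control as the reference. At day 7 the silenced fibres held higher levels of 3 ribosomal protein genes, Rpl13a and Rpl3l among them, and lower levels of none. These are 3.57% of the 84 members, where 13.4% of all genes passed, 8.28% upwards and 5.17% downwards. The large majority of members lay slightly above the control all the same: 77 of 84 were above 0 and 7 below, where 42.8% of all genes were below 0, with a median of 0.22 against 0.08 for all genes. At an unadjusted p below 0.05, 19 members were higher and 1 lower, where 17.7% of all genes were higher and 11.2% lower. The large subunit members had a median of 0.23 (n = 51) and the small subunit members one of 0.21 (n = 33).

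The median shift of the set at day 7, 0.22, was of about the size of the spread between fibres. The SD of the member median was 0.18 in the silenced fibres and 0.20 in the controls. The member median stood at 5.60, 5.80 and 5.44 in the silenced fibres and at 5.39, 5.55, 5.64 and 5.17 in the controls. Silenced fibres included the highest value, but 2 of the controls lay above the lowest silenced fibre. With 1 fibre left out, the median of the members' differences lay between 0.12, without silenced fibre 2, and 0.29. The size of the shift depended on the scaling: it was 0.09 with median scaling or normexp background correction and 0.28 with the percentile taken over probes detected on all arrays. With the share of detected probes as a covariate it was 0.19. With the percentile over probes detected on all arrays 17 members passed at day 7. None did with median scaling, or with only the groups compared in the fit.

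Rpl13a, a large subunit protein that is also known for a role outside the ribosome in the interferon-gamma response, stood at 4.75, 4.77, 5.17 and 4.82 in the controls of day 7 and at 5.36, 5.35 and 5.17 in the silenced fibres. The silenced fibres were higher, but the lowest of them and control fibre 3 both read 5.17. The difference was 0.41 ± 0.13 at day 7 (adjusted p = 0.037) and 0.29 ± 0.09 over both days (adjusted p = 0.0317). A dimmer probe of Rpl13a gave -0.02 over both days (adjusted p = 0.935 over all probes), and with the mean of the gene's probes the call was lost (adjusted p = 0.315 at day 7 and 0.398 over both days). It was also lost without control fibre 1, 2 or 4 or silenced fibre 1 or 2 of day 7 (adjusted p from 0.0688 to 0.106). Over both days it was lost without control fibres 1 or 2 of day 7 or 3 of day 14, or silenced fibres 1 or 2 of day 7 or 4 of day 14 (adjusted p from 0.0557 to 0.066).

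Rpl3l, the muscle paralogue whose probe is printed above, stood at 5.11, 5.35, 4.58 and 5.20 in the controls of day 7 and at 5.54, 5.49 and 5.60 in the silenced fibres. No fibre overlapped, and control fibre 3 was far the lowest of all. The difference was 0.48 ± 0.15 (adjusted p = 0.0347). At day 14 the controls stood at 5.27, 5.31, 5.59 and 5.58 and the silenced fibres at 5.38, 5.20, 5.27 and 5.30, a difference of -0.15 ± 0.14 (adjusted p = 0.603). Without control fibre 3 the day 7 difference was 0.32 (adjusted p = 0.123). It missed the threshold, too, without control fibre 1 or any one of the silenced fibres (adjusted p from 0.0561 to 0.102). The day 7 call was also lost in 6 of 15 alternative settings, up to an adjusted p of 0.183.

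At day 7, 14 members were higher in every silenced fibre than in every control, among them Rpl10l, Rpl13a, Rpl23, Rpl24, Rpl36, Rpl3l, Rpl4, Rpl41, Rplp0, Rps12, Rps14, Rps28 and Rps6. None was lower in all of them, where 13.6% of all genes were separated upwards and 8.21% downwards. The count of 3 members that passed fell to 0 without silenced fibre 1 or 2 and to 1 without control fibre 1, and rose to 5 without control fibre 3. It rose to 6 without MCU vector fibre 2 of day 14, which enters only through the estimate of spread.

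At day 14 the picture turned: 2 members passed, Rplp1 and Rpl22l1, and both were lower in the silenced fibres. They are 2.38% of the members, where 3.46% of all genes passed, 1.54% upwards and 1.92% downwards. Of the 84 members 71 lay below 0, with a median of -0.14 against -0.01 for all genes, where 51.1% of all genes lay below 0. At an unadjusted p below 0.05, 0 members were higher and 9 lower, where 9.40% of all genes were higher and 9.13% lower. The member median stood at 5.18, 5.13, 5.01 and 5.40 in the silenced fibres and at 5.28, 5.35, 5.23 and 5.38 in the controls. The highest of all these fibres was a silenced one, and the other 3 silenced fibres lay below every control. The median of the members' differences lay between -0.21 and -0.07 when 1 fibre was left out, the smallest of these without silenced fibre 3. With median scaling it was -0.26 and 5 members lay above 0, with the percentile over detected probes -0.06 and 27, and with quantile normalization -0.04 and 29.

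Rplp1, 1 of the acidic stalk proteins that recruit elongation factors to the large subunit, was the member with the largest fall. It stood at 5.37, 5.49, 5.20 and 5.52 in the controls of day 14 and at 4.57, 4.72, 4.47 and 4.95 in the silenced fibres. Every silenced fibre was lower than every control. The difference was -0.72 ± 0.13 (adjusted p = 0.00211). At day 7 the controls stood at 5.34, 5.68, 5.75 and 5.24 and the silenced fibres at 5.19, 5.46 and 5.23, which overlap (-0.21 ± 0.14, adjusted p = 0.346). Over both days the difference was -0.46 ± 0.10 (adjusted p = 0.00291), and that call and the one at day 14 held in each alternative processing and with any 1 fibre left out. The reference matters here: the transfected controls were themselves higher than wild type fibres, which stood at 4.99, 4.98, 5.00 and 4.78 at day 7 and at 4.86, 5.25, 4.85 and 5.03 at day 14. Against the wild type values the silenced fibres of day 7 lay higher without exception, while those of day 14 overlapped them.

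Rpl22l1, a paralogue of Rpl22 that can take its place in the large subunit, stood at 5.12, 5.10, 4.93 and 5.17 in the controls of day 14 and at 4.24, 4.36, 4.13 and 4.87 in the silenced fibres. The groups did not overlap, with silenced fibre 4 the closest to the controls. The difference was -0.68 ± 0.16 (adjusted p = 0.0208). At day 7 the controls stood at 5.07, 5.14, 4.81 and 4.56 and the silenced fibres at 5.02, 5.30 and 4.89, with overlap and a difference of 0.17 ± 0.18 (adjusted p = 0.545). The day 14 call was lost without control fibre 1 or 4 or silenced fibre 1 or 3 of that day (adjusted p = 0.0518, 0.0595, 0.0545 and 0.0833). The third smallest p at day 14 was that of Rpl36al, a paralogue of Rpl36a (-0.50 ± 0.17, adjusted p = 0.101). All silenced fibres lay below all controls for 4 members, Rpl22l1, Rpl36al, Rpl7a and Rplp1, and above for Rps2, where 4.81% and 4.29% of all genes were so separated.

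**Figure D4:**
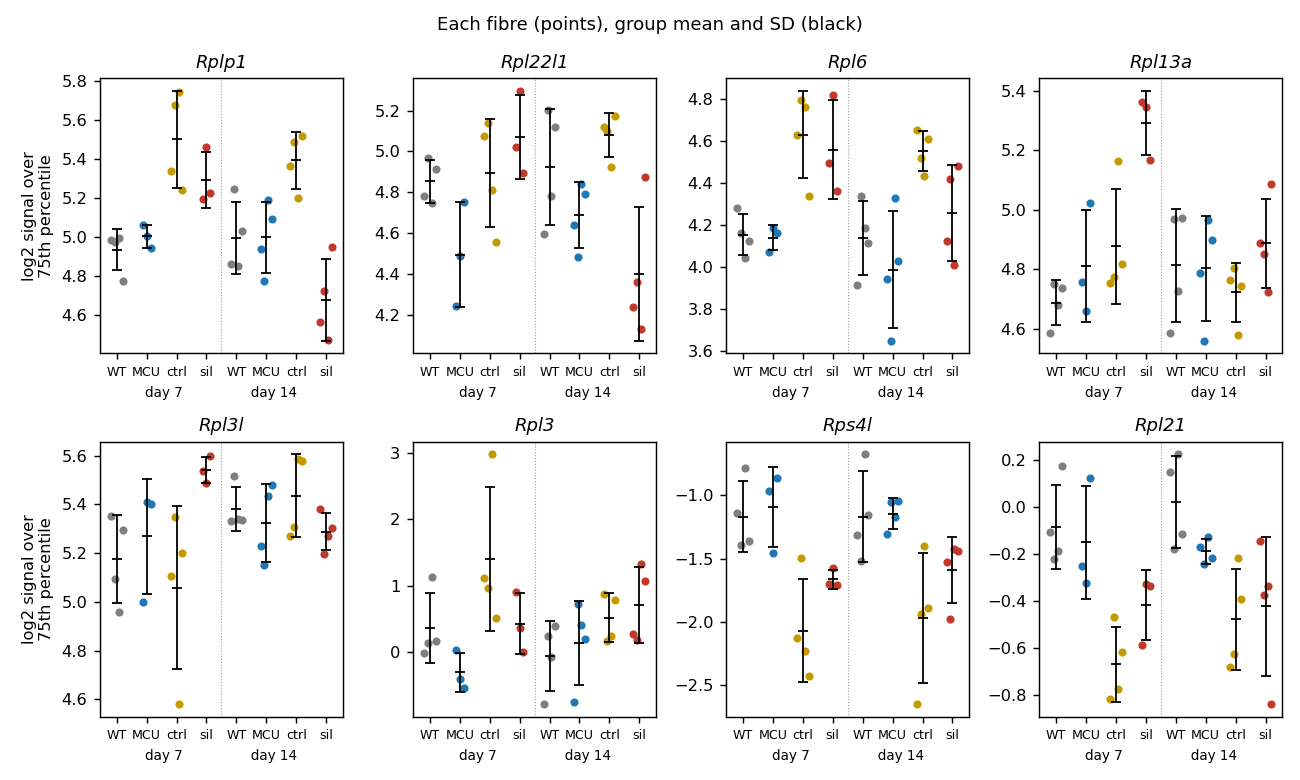
Points are single fibres of 8 member genes, with the group mean and SD in black, on the log2 scale over the array's 75th percentile. In each panel the 4 groups of day 7 stand left of the dotted line and those of day 14 right of it, in the order wild type, MCU vector, transfected control and silencing. Rplp1 of the silenced fibres at day 14 (4.47 to 4.95) lies below all 4 controls (5.20 to 5.52).

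Over both days 3 members passed, Rplp1 downwards and 2 upwards, of which Rpl13a is one, which is 3.57% of the members where 14.1% of all genes passed, 8.00% upwards and 6.10% downwards. The member median was 0.04, as was that of all genes. This average joins effects of opposite sign. Of the 84 members, 65 lay above 0 at day 7 and below 0 at day 14, where 25.6% of all genes did so. With the MCU vector, 30 members did, where 19.9% of all genes did. Without silenced fibre 1 or 2 of day 7 only Rplp1 passed over both days.

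The change of the silencing effect from day 7 to day 14 was tested as an interaction. It was negative for 81 of 84 members, where 56.4% of all genes were below 0, with a median of -0.36 against -0.08 for all genes. A single member passed, Rpl22l1 (-0.85 ± 0.24, adjusted p = 0.0449), which is 1.19% of the members where 4.13% of all genes passed, 1.38% upwards and 2.75% downwards. At an unadjusted p below 0.05, 19 members were lower and 0 higher, where 11.8% of all genes were lower and 7.18% higher. The next smallest p-values were those of Rpl26 (-0.58 ± 0.18, adjusted p = 0.0632) and Rpl3l (-0.63 ± 0.20, adjusted p = 0.082). The medians of the large and small subunit members were -0.36 and -0.35. The 3 members above 0 were Rpl3, Rps2 and Rpsa.

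The size of this change over time depended on the scaling. The median of the 84 changes lay between -0.38 and -0.14 over the alternative settings, the smallest with quantile normalization, and between -0.43 and -0.26 with 1 fibre left out, the smallest without silenced fibre 2 of day 7. Between 3 and 11 members lay above 0 over the alternatives of scaling and background. As the fibre medians above show, the silenced fibres overlapped their controls at both days, and the arrays with the lowest signal and the lowest detection of the series were among the silenced arrays of day 7. With the share of detected probes as a covariate the median change was -0.32. The call of Rpl22l1 was lost in 17 of the 30 refits that left out 1 fibre, the highest adjusted p being 0.122 without silenced fibre 2 of day 7. It was also lost in 7 of 15 alternative settings, up to an adjusted p of 0.144, the replicate block (adjusted p = 0.0653) among them. The count of members that passed rose to 3 without silenced fibre 4 of day 14.

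**Figure D5:**
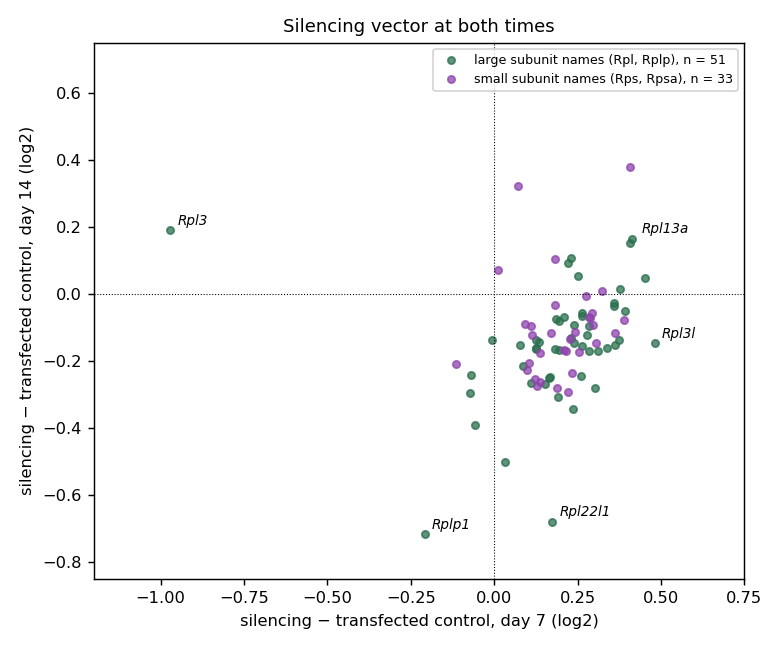
Each point is 1 member gene, with its log2 difference between silenced fibres and transfected controls at day 7 on the horizontal axis and at day 14 on the vertical axis, large subunit and small subunit in separate colours. Of the 84 genes 65 fall in the lower right, above 0 at day 7 and below 0 at day 14.

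The effects of the MCU vector and of the silencing vector, each against its own control, were then compared with each other over both days. The control of the MCU vector had no virus, while that of the silencing vector carried virus. A single member differed, Rplp1 (0.50 ± 0.14, adjusted p = 0.0226), which is 1.19% of the members where 11.2% of all genes differed. The MCU vector effect on Rplp1 was 0.04 ± 0.10, beside the silencing effect of -0.46 given above. MCU vector fibres stood at 5.06, 5.01 and 4.95 at day 7 and at 4.94, 4.77, 5.19 and 5.09 at day 14, and they overlapped the wild type fibres at both days. Rpl10l (-0.44 ± 0.16, adjusted p = 0.081) and Rpl24 (-0.31 ± 0.14, adjusted p = 0.14) came next. Without silenced fibre 3 of day 14, 2 members passed.

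The third comparison sets the transfected control, virus without a change of MCU, against wild type fibres, and it gave the most calls among these genes. These groups lay on different slides, so that virus and slide cannot be told apart in it. Over both days 11 members passed, 9 upwards and 2 downwards, which is 13.1% of the members where 27.8% of all genes passed, 10.3% upwards and 17.5% downwards. Those that rose were Rpl3 (0.81 ± 0.29), Rplp1 (0.48 ± 0.09), Rpl6 (0.45 ± 0.10), Rpl36al (0.33 ± 0.12), Rpl7a (0.31 ± 0.10), Rps7 (0.31 ± 0.08), Rpl26 (0.29 ± 0.09), Rpl23a (0.27 ± 0.10) and Rps9 (0.25 ± 0.09). Those that fell were Rps4l (-0.85 ± 0.16) and Rpl21 (-0.54 ± 0.10). The call of Rpl23a was lost in 8 of 15 alternative settings and in 17 of 30 refits that left out 1 fibre. That of Rps9 was lost in 6 and 13 of these and that of Rpl36al in 6 and 10, while those of Rplp1 and Rpl6 held in all. In all 72 of 84 members lay above 0 and 12 below, where 54.2% of all genes lay below 0, and the member median was 0.11 against -0.04. Wild type fibres also serve the MCU vector comparison and the transfected controls the silencing comparison, so that an effect here and an effect there share fibres and are not separate evidence. MCU vector fibres also carried virus and lay on the slides of the wild type fibres. Over both days they differed from wild type fibres in 1.13% of all genes and in no member. The part of slide in these counts was not tested.

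The count depended on the scaling. With median scaling 31 members passed and 81 lay above 0, with a median of 0.27. With the percentile over probes detected on all arrays 7 passed and 51 lay above 0, with a median of 0.03. The median over all genes moved with it, from -0.04 to 0.12 with median scaling, and the share of upward calls among all genes that passed went from 36.9% to 66.9%. With the share of detected probes as a covariate 4 members passed. With the mean of a gene's kept probes 15 members passed, where 27.3% of all genes did. Left out in turn, wild type fibre 4 of day 7, wild type fibres 1 and 3 of day 14 and control fibre 4 of day 14 each left 7 members that passed.

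Rpl6, a large subunit protein, stood at 4.28, 4.16, 4.04 and 4.12 in the wild type fibres of day 7 and at 4.63, 4.80, 4.76 and 4.34 in the transfected controls. At day 14 the wild type fibres stood at 3.91, 4.34, 4.19 and 4.11 and the controls at 4.65, 4.52, 4.43 and 4.61. The groups did not overlap at either day. The difference over both days passed with an adjusted p of 0.0017 and held in each alternative and with any 1 fibre left out. Its other 3 probes gave 0.63 (adjusted p = 0.001 over all probes), 0.13 and 0.10. That of Rplp1, whose fibre values are given above, had an adjusted p of 0.000453 over both days, and the groups did not overlap at day 7.

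The 2 members that fell are both dim. Rps4l, a paralogue of Rps4x, stood at -1.14, -1.39, -0.78 and -1.36 in the wild type fibres of day 7 and at -2.13, -1.49, -2.23 and -2.43 in the transfected controls. At day 14 the wild type fibres stood at -1.32, -1.52, -0.67 and -1.16 and the controls at -2.65, -1.94, -1.40 and -1.89. The controls lay below all wild type fibres at day 7 and overlapped them at day 14, and the adjusted p over both days was 0.000343. With normexp background correction the difference was -0.26 over both days (adjusted p = 0.00805) and -0.22 at day 7, where the call was lost (adjusted p = 0.129). The Rps4l call of day 14 was lost with median scaling (adjusted p = 0.0706), with only the groups compared (adjusted p = 0.0548) and with the share of detected probes as a covariate (adjusted p = 0.0662). Rpl21, a large subunit protein, stood at -0.11, -0.22, -0.19 and 0.18 in the wild type fibres of day 7 and at -0.82, -0.47, -0.77 and -0.62 in the controls. At day 14 the wild type fibres stood at 0.15, -0.18, 0.23 and -0.11 and the controls at -0.68, -0.62, -0.22 and -0.39. No fibre overlapped at either day, and the adjusted p over both days was 0.000381.

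At day 7 alone 8 members passed, 6 upwards (Rplp1, Rps2, Rpl23a, Rpl6, Rpl26 and Rps7) and Rps4l and Rpl21 downwards, where 17.4% of all genes passed. Rps2, a small subunit protein, rose by 0.57 ± 0.16 at day 7 and stood at -0.01 ± 0.16 at day 14. The count was 4 without control fibre 2 or 3 of day 7. At day 14 alone 5 passed, Rpl10a (0.43 ± 0.13), Rpl6 and Rplp1 upwards and Rps4l and Rpl21 downwards, where 16.0% of all genes passed. That count fell to 0 without wild type fibre 3 of day 14, to 1 without wild type fibre 1 or control fibre 1, to 2 without control fibre 2 or 4, and to 3 without wild type fibre 4. At day 7 the controls lay above all wild type fibres for 13 members and below for 2, where 8.28% and 13.3% of all genes were so separated. At day 14 they did for 3 members and 1, where 7.81% and 12.6% of all genes were.

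Few members passed for time alone. Between day 7 and day 14, no member passed in wild type fibres, where 2.41% of all genes did, and the smallest p was that of Rpl26 (0.23, adjusted p = 0.384). In the transfected controls 1 member passed, Rps3, higher at day 14 by 0.51 ± 0.14 (adjusted p = 0.047), where 3.26% of all genes passed. Its controls stood at 5.74, 5.63, 5.62 and 5.84 at day 7 and at 5.81, 6.32, 6.43 and 6.33 at day 14, with fibre 1 of day 14 inside the range of day 7. That call was lost in 23 of the 30 refits that left out 1 fibre, up to an adjusted p of 0.14 without control fibre 3 of day 14. It was also lost in 9 of the 15 other settings, and with the mean of the gene's kept probes the change was 0.17 (adjusted p = 0.34). Of the 84 members 67 lay below 0 in the transfected controls, where 46.8% of all genes did, and the member median was -0.10 against 0.03. In wild type fibres 25 lay below 0, where 43.2% of all genes did, and both medians were 0.05.

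The other stalk proteins and Rpsa were read beside Rplp1. Rplp0, which anchors the stalk, stood at 5.97, 6.17, 6.11 and 5.94 in the controls of day 7 and at 6.22, 6.34 and 6.28 in the silenced fibres. The groups did not overlap, but the difference was 0.23 ± 0.11 (adjusted p = 0.157), and at day 14 it was 0.11 ± 0.10 (adjusted p = 0.597). Rplp2, the partner of Rplp1 in the stalk, gave -0.01 ± 0.13 at day 7 and -0.14 ± 0.12 at day 14. Rpsa, a small subunit protein also known as the laminin receptor precursor, gave 0.01 ± 0.13 and 0.07 ± 0.12. With the MCU vector the effects over both days were 0.11 ± 0.07, -0.07 ± 0.09 and 0.05 ± 0.09 for these 3 genes. None of these passed, while Rplp1 did under silencing. Whether Rplp1 differed from Rplp0 or Rplp2 was not tested.

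Paralogue pairs were compared within each fibre, as the change of the log2 ratio between the 2 genes. Of 8 pairs 7 were measured. Fibres were permuted between a vector and its control within each day, in an exact 2-sided test over both days with 2450 arrangements (smallest possible p 0.000408), and p was adjusted over the 14 tests. None passed. The ratio of Rpl36al to Rpl36a was lower under silencing by an amount with the smallest p (-0.19, exact p = 0.00612, adjusted p = 0.0857). That of Rpl22l1 to Rpl22 changed by -0.34 under silencing (exact permutation p = 0.0453, adjusted p = 0.181) and by -0.17 with the MCU vector (exact permutation p = 0.172, adjusted p = 0.301). That of Rps4l to Rps4x changed by 0.46 under silencing (exact permutation p = 0.0482, adjusted p = 0.181), and that of Rps27l to Rps27 by 0.26 with the MCU vector (exact permutation p = 0.0645, adjusted p = 0.181). The pairs Rpl7l1 with Rpl7 and Rpl10l with Rpl10 gave adjusted p-values from 0.214 to 0.47.

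The ratio of Rpl3l to Rpl3 gave the value of largest size among the 7 pairs at day 7, with either vector, and under silencing over both days (0.56), and it did not pass. Under silencing it was higher by 1.45 at day 7 and lower, by -0.34, at day 14 (exact permutation p = 0.351 over both days). With the MCU vector it changed by 0.76 and -0.26 (exact permutation p = 0.484). Rpl3 was the member with the largest residual SD. In the controls of day 7 Rpl3 stood at 1.12, 0.97, 2.98 and 0.52, and in the silenced fibres at 0.91, 0.37 and -0.00. Control fibre 3 was far above every other fibre of the series, and it is the same fibre in which Rpl3l was lowest. The difference of Rpl3 was -0.97 ± 0.45 (adjusted p = 0.15). The call of Rpl3 in transfected controls against wild type fibres (adjusted p = 0.0416) was lost without that fibre (0.54, adjusted p = 0.103) and without any one of wild type fibres 1, 2 and 4 of day 7, wild type fibres 1 and 3 of day 14 and control fibres 1 and 4 of day 14 (adjusted p from 0.0625 to 0.0949).

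Several genes were measured by more than 1 probe, and 54 had a second probe that passed the filter (93 further probes). Under silencing, 74 of the 93 had the sign of the probe used at day 7 and 83 of 93 at day 14. Over both days 64 of 93 did, where most values are near 0 (median absolute difference between probes 0.08). Dim probes could still go their own way. For Rpl22 the probe used gave 0.34 at day 7 and a second probe gave -0.89 (adjusted p = 0.004 over all probes), and for Rps6 the values were 0.31 and -1.27 (adjusted p = 0.008 over all probes). For Rpl23 they were 0.16 and -0.49 over both days (adjusted p = 0.026 over all probes). For Rps27a in the transfected controls they were 0.25 and -0.43 (adjusted p = 0.013 over all probes). In the transfected controls over both days 74 of the 93 further probes had the sign of the probe used, and 19 passed. For 16 genes a further probe passed while the probe used did not. Of the 177 kept member probes 16.4% passed, 26 upwards and 3 downwards, where 3301 and 5456 of all 33164 probes did. No gene had its used probe and another probe called in opposite directions. Rplp1, Rpl22l1, Rpl3l, Rpl3, Rps4l and Rps7 rest on 1 probe each.

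RefSeq promoters on build GRCm38.p6 were matched for 63 of the 84 members. A C at the annotated start followed by at least 4 further pyrimidines was found in 13 of the 63 (20.6%), against 3.01% of all 27025 symbols. A gene or symbol counted where any of its promoters matched. Annotated starts are not exact to the base, and such a run beginning within 5 bases either side was found in 28 (44.4%) against 21.2%. The letters CGGAAG, read on either strand within the 300 bases, were found in 43 (68.3%) against 18.8%. TATAAA, on either strand, was found in 7 (11.1%) against 15.7%, and CCAAT, on either strand, in 19 (30.2%) against 41.1%. A match describes letters only. The windows below run from 15 bases before the start to 15 bases from it, with the pyrimidine run at the start in capitals, and were chosen to show long, middle and short runs.
Rpl15: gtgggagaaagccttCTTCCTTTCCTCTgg
Rpl35: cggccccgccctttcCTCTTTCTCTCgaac
Rps18: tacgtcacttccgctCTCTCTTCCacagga
Rps6: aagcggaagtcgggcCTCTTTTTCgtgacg
Rpl38: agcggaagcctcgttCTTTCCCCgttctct
Rplp2: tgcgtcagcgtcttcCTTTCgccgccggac
Their positions on GRCm38.p6 are chr14:18270972-18271001 for Rpl15, chr2:39005117-39005146 for Rpl35, chr17:33955651-33955680 for Rps18 and chr4:86857353-86857382 for Rps6, all on the minus strand. Rpl38 (chr11:114668565-114668594) and Rplp2 (chr7:141447636-141447665) lie on the plus strand. The change of the silencing effect from day 7 to day 14 was -0.38 for Rpl15, with a run of 13 bases, -0.44 for Rpl35 with 11, -0.47 for Rps18 and -0.45 for Rps6 with 9 each, -0.38 for Rpl38 with 8 and -0.13 for Rplp2 with 5. The values did not order by run length: Rpl28, also with 8, gave -0.13, while Rpl14 with 6 gave -0.42 and Rps21 with 5 gave -0.39. All 9 values are negative, as are those of 81 of the 84 members.

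Genes that work with the ribosomal proteins were taken as lists by function, and counts here are over both days unless a day is named. Beside them stand the shares of all genes that passed, 1.13% with the MCU vector, 8.00% upwards and 6.10% downwards under silencing, and 10.3% upwards and 17.5% downwards in the transfected controls. Of 19 other genes with TOP messages or a place on the ribosome, all measured, none passed with the MCU vector, and under silencing 1 fell, Pabpc1, which binds poly(A) tails (-1.26 ± 0.26, adjusted p = 0.00227). In the transfected controls 3 rose, Pabpc1 (1.33 ± 0.25), Hnrnpa1 (0.43 ± 0.14) and the elongation factor Eef2 (0.24 ± 0.08). Their list medians were 0.06, -0.01 and 0.15, and the median of the change of the silencing effect over time was -0.16.

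Of 32 genes of ribosome biogenesis, none passed with the MCU vector (median 0.10), with Nop56 the smallest p (-0.31 ± 0.10, adjusted p = 0.126). Under silencing 3 fell, the nucleolar proteins Nolc1 (-0.78 ± 0.18), Nop58 (-1.10 ± 0.29) and Gnl3 (-0.56 ± 0.18), and 1 rose, Ubtf, a factor of ribosomal RNA transcription (0.24 ± 0.07), with a list median of -0.09. In the transfected controls 8 rose and 2 fell (median 0.20), led by Nolc1 (1.16 ± 0.18, adjusted p = 3.32e-05), the methyltransferase Fbl (0.40 ± 0.07, adjusted p = 0.000253) and Nop58 (1.35 ± 0.28, adjusted p = 0.000764).

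Of 19 genes that control the translation of these messages 18 were measured. With the MCU vector 1 rose, the kinase Rps6ka3 (0.58 ± 0.14, adjusted p = 0.0357), with a list median of 0.16. Under silencing 6 fell and none rose (median -0.33): the transcription factor Myc (-3.05 ± 0.54, adjusted p = 0.000665), Rps6ka3 (-0.75 ± 0.14), the cap-binding complex genes Eif4g1 (-0.47 ± 0.12) and Eif4e (-0.46 ± 0.14), and the inhibitors of cap binding Eif4ebp1 (-0.65 ± 0.18) and Eif4ebp2 (-0.55 ± 0.14). At day 7, 4 genes of this list fell and none rose, and at day 14, 2 fell and 1 rose, where 5.17% of all genes fell at day 7, and 1.92% fell and 1.54% rose at day 14. In the transfected controls 6 rose and 1 fell (median 0.26), with Myc at 3.69 ± 0.52 (adjusted p = 1.5e-05), Eif4ebp1 at 1.08 ± 0.17 (adjusted p = 5.94e-05) and Ddit4, an inhibitor of mTOR signalling, at -2.79 ± 0.45 (adjusted p = 5.96e-05). The silencing and the transfected control values share the transfected control fibres.

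Markers of other cells were read beside these results. Of 7 leukocyte and macrophage markers 6 were measured. Over both days Cd68 was lower under silencing (-2.11 ± 0.48, adjusted p = 0.0052) and higher in the transfected controls (2.23 ± 0.46, adjusted p = 0.000867), where Itgam was lower (-0.24 ± 0.07, adjusted p = 0.0112). At day 7 of silencing 1 of the 6 was higher and 2 were lower, where 8.28% and 5.17% of all genes were. None passed at day 14 of silencing. In the transfected controls of day 7, 1 was higher and 1 lower, where 17.4% of all genes passed. The summed signal of the list, nearly all of it from 1 Itgam probe, lay between 285 and 342 times the array's 75th percentile in wild type fibres of day 7, 237 and 276 in the controls of day 7, 274 and 307 in those of day 14, 291 and 335 in silenced fibres of day 7 and 254 and 331 in those of day 14. The sum was lowest in the controls of day 7. Adgre1 was well above background on 8 of 30 arrays. Of the other lists 2 of 4 endothelial, 4 of 5 fibroblast, 1 of 4 lymphocyte and 1 of 3 erythroid markers were measured, Col1a1 on 6 arrays and Dcn on 7. Over both days the fibroblast median was -1.38 with the MCU vector, 0.47 under silencing and -1.24 in the transfected controls, where none passed. The erythroid marker lay between 0.493 and 95.2 times the 75th percentile in silenced fibres of day 14 and between 0.481 and 0.737 in their controls. It also reached 15.5 and 16.2 in wild type fibres of day 7 and day 14, and 18.5 with the MCU vector at day 14. The 4 slow fibre markers summed to between 1.47 and 41.8 times the 75th percentile in the controls of day 7, and to between 1.49 and 6.23 in the other groups of the silencing comparison. The fast fibre markers summed to between 1130 and 2930 in silenced fibres of day 14 and to between 2460 and 2780 in their controls. Of that list at day 14 of silencing, Myh1 gave 4.03 ± 1.24 (adjusted p = 0.0703), Myh4 -2.21 ± 0.83 (adjusted p = 0.141), Pvalb -1.14 ± 0.48 (adjusted p = 0.195) and Actn3 -2.21 ± 1.17 (adjusted p = 0.32), and none of the 7 passed. Myl3, of the slow fibre list, was lower in the transfected controls over both days (-1.02 ± 0.20, adjusted p = 0.000385). Col1a2, of the fibroblast list, had an MCU vector effect that differed from the silencing effect by -1.22 ± 0.40 (adjusted p = 0.0474). The part of these markers in the results was not tested.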

How the data were processed

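Single fibres were profiled on 1-colour Agilent mouse arrays (design 028005), 1 fibre per array. The deposited scanner files hold the intensity of each spot as processed by Agilent Feature Extraction 10.7.3.1, that is, background-subtracted and detrended within the array, per the file headers, with flags for spots well above background. The deposited series matrix holds the authors' processed intensity on a linear scale, with steps not given in the sources used here; it served as an alternative. Here, log2 values were taken from the deposited intensity and the array's 75th percentile was subtracted.

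Control and outlier spots were left out and replicate spots averaged (55681 probes from 59305 spots). A probe was kept where some group had 3 or more arrays with the spot well above background, which left 33164 probes. The brightest kept probe stood for its gene (23342 genes). Names were updated through RefSeq accessions and symbols, and positions are those of the files (mm9). A model with 8 group means was fitted to 30 arrays with limma 3.58.1 in R 4.3.3 (22 residual degrees of freedom, 2-sided), with Benjamini-Hochberg adjustment over all genes. An effect over both days averages the 2 single-day effects. Figures were drawn with matplotlib 3.10.9.

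Named genes were the paralogue pairs, the stalk proteins and Rpsa, in each comparison the 5 largest rises and falls among members that passed (or the 3 smallest p-values), members whose probes disagreed in a call, 3 members of each functional list, and Mcu; some genes that the rule takes are not reported here. The members and lists were chosen with earlier results of these data known. Same-numbered fibres of a vector and its control deviated together weakly (r from -0.18 to 0.19, above 0.1 in 4 of 14 pairs), but were closest to each other in 7 of the 14. Whether 7 exceeds chance was not tested. Numbers were not taken to pair fibres in the main model, and replicate number was fitted as an alternative. No pair of fibres within a group correlated above 0.984, and each was counted as its own sample. Alternatives covered scaling, background, the filter, the probe chosen, the fibres fitted, replicate number, array row, array weights and detection. The number of arrays limits the precision.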

Additional observations from a re-analysis of the deposited data

Results flagged for a closer look

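Some fibres lay apart from the other 3 of their group. Of 96 groups of 4 values looked at (14 genes of the set, their median and Mcu, in 6 groups each), 6 held such a fibre, where chance gives about 1 in 20. The median of the ribosomal protein genes was 5.19 in wild type fibre 2 of day 7 against 5.25 in each of the others. Rplp1 was 4.78 in wild type fibre 4 of day 7 against 4.98 to 5.00. Rpl3 was 1.14 in wild type fibre 3 of day 7 against -0.01 to 0.16. Rpl3l was 5.52 in wild type fibre 2 of day 14 against 5.33 to 5.34. Rpl22 was 3.61 in silenced fibre 4 of day 14 against 3.14 to 3.19. Rpl13a was 5.17 in transfected control fibre 3 of day 7 against 4.75 to 4.82.

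A pair of tests between effects passed. The silencing effect on Rpl22l1 changed by -0.85 from day 7 to day 14 (limma, adjusted p = 0.0449), and the MCU vector and silencing effects on Rplp1 differed by 0.50 over both days (limma, adjusted p = 0.0226). The Rpl22l1 call was lost in 17 of 30 refits that left out 1 fibre and in 7 of 15 alternative settings. The Rplp1 call held in each.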

How the results depend on the processing

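Counts of ribosomal protein genes that passed are given as main against alternative. For silencing over both days (3) the count was 8 with the percentile over probes detected on all arrays, 1 with only the groups compared, 2 with median scaling, no filter or the replicate block, and from 1 to 3 with 1 fibre left out. For the transfected control (11) it was 31 with median scaling, 15 with the mean of probes, and 7 with the percentile over detected probes, the series matrix or no filter. It was 4 with detection as a covariate, 11 with the replicate block, and from 7 to 15 with 1 fibre left out. For the change of the silencing effect (1) it was 3 with the percentile over detected probes and 0 with median scaling, normexp, no filter, only the groups compared, the replicate block, array weights or detection as a covariate, and from 0 to 3 with 1 fibre left out. For the MCU vector minus silencing (1) it was 6 with the percentile over detected probes, and from 1 to 2 with 1 fibre left out. For the MCU vector (0) it was 1 with array weights, and 0 with any fibre left out. For the change of the MCU vector effect it was 0 throughout. Paralogue ratios (0) gave 1 with normexp or the mean of probes, and from 0 to 1 with 1 fibre left out. No call reversed its direction. The cause of these moves was not tested.

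Among all genes that passed, the share that was higher moved with the scaling, from 56.7% to 25.1% with median scaling and 74.5% with the percentile over detected probes for silencing over both days. For the MCU vector it moved from 74.1% to 87.2% and 63.7%, and for the MCU vector minus silencing from 47.7% to 78.7% and 27.2%. At day 7 of silencing it moved from 61.5% to 37.9% and 72.6%, and at day 14 from 44.6% to 22.4% and 64.4%. With median scaling the median of all genes moved from 0.04 to -0.08 for silencing over both days and from -0.07 to 0.09 for the MCU vector minus silencing, and with the percentile over detected probes the latter moved to -0.18. Same-numbered fibres were closest to each other in 7 of 14 pairs. A random block for slide could not be fitted, since each group lies on 1 slide. Members at low signal, such as Rps4l, are limited by background.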
